A study of Drosophila melanogaster with 3 samples.

Results

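The autophagy and endosomal sorting genes described here are the protein-coding genes of Drosophila melanogaster whose symbols begin with Atg, Vps or Snx followed by a digit. In the gene models of Ensembl release 115 this rule gave 54 of 13945 protein-coding genes, of which 20 are Atg, 27 Vps and 7 Snx genes. The rule uses symbols alone and no measured value. The measurements were lists of peaks from chromatin immunoprecipitation with sequencing (ChIP-seq) of Pdp1, a PAR bZIP transcription factor, in whole embryos of mixed sex aged 0 to 24 h. The embryos came from a transgenic line that carries Pdp1 with eGFP, a green fluorescent protein, at its C-terminus. The sample description names an antibody against GFP, while the antibody field of the labels names Pdp1. Chromatin was sonicated to 200 to 800 bp. The series held 1 group of 3 biological replicates of this 1 line, with no second condition, and mixed all embryonic stages and cell types, so the cells in which a site was occupied were not resolved.

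Autophagy delivers cytoplasm to the lysosome for breakdown, and in flies it is known for clearing larval tissues and for supplying nutrients in the starved fat body. A kinase complex built on Atg1 starts the process, a phosphatidylinositol 3-kinase complex marks the membrane, and ubiquitin-like conjugation attaches Atg8 to the growing autophagosome. Endosomal sorting is carried out by the ESCRT complexes, which bud cargo into endosomes, by retromer and sorting nexins, which retrieve cargo, and by tethering complexes that fuse endosomes with their targets.

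A gene is called bound where the summit of an optimal peak lay within 1 kb of one of its transcription start sites (TSSs). Optimal peaks are the 13583 dm6 peaks that the authors kept by their test of the irreproducible discovery rate (IDR). Peaks are described by their signal, the authors' own value per peak, and by their rank by signal within a list. Each replicate list held 30000 lines as deposited, with median signals of 86.1, 37.8 and 26.8 on the main arms in replicates 1, 2 and 3. The lists give no numbers of reads. Depth was therefore unknown, and signals were not compared between lists.

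Sequences that hold a searched word at the strongest summit of a member are shown first. They were picked for the word and not for the strength of the peak, with ranks from 13 to 8209. Most member summits held no searched word, among them the strongest summits of Vps24 and Snx3. The words searched were TTACACAA, TTACATAA, TTACGCAA, TTACGTAA, TTATACAA, TTATATAA, TTATGCAA, TTGCACAA, TTGCGCAA and TTGTACAA on both strands, which form the family of PAR bZIP-like sites. TTACGTAA and TTACATAA, the reverse complement of TTATGTAA, are the canonical sites among them. The canonical words are a subset of the 10, and none of the 10 equals a further word. The further words, added after values had been seen, were TATCGATA, the core of the DRE found in housekeeping promoters of flies, TGACGTCA, the cAMP response element (CRE) of other bZIP factors, CACGTG and TCACGTGA. All 4 read the same on both strands, and TCACGTGA contains CACGTG. Capitals mark the word, and all sequences are from the plus strand of dm6, read from the Release 6 reference. The first 5 lines show the PAR bZIP-like words at the strongest summits of the members that held one within 50 bp.
Atg4b, chr3R:15357237-15357266: ctaaaattctaTTGCGCAAcgctgaatttc
Atg18a, chr3L:8186164-8186193: tgtttacatacTTACATAAaatcgttctga
Atg2, chr3L:2774039-2774068: ttgtttggagtTTGCATAAatctccgatga
Vps52, chr2L:5524157-5524186: tattctaccaaTTATACAAcatgaacacaa
Vps4, chrX:17907282-17907311: aaacaaactgtTTATATAAatattttaatt
The next line is the summit of the second strongest member, Vps33B, shown for its CRE word.
Vps33B, chr3R:25473262-25473322: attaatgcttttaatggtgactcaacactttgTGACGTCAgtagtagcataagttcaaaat
The last 4 lines show the DRE at the strongest summits of the members that held one within 50 bp.
Vps53, chr2L:4386110-4386139: agataagcgcaTATCGATAaagaaatttat
Atg14, chr3R:29116381-29116410: aggtgtcctcaTATCGATAgcgataatagc
Vps4, chrX:17907306-17907335: ttaattgcgcgTATCGATAatgtattattg
Atg3, chr3L:18748628-18748657: ctgcaacaactTATCGATAgtcccacccac

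Binding was found at the promoters of 30 of the 54 genes, or 55.6% (exact 95% Clopper-Pearson interval 41.4 to 69.1). Over all protein-coding genes the share was 44.1%, which lies inside this interval. The intervals cover counting of genes alone. Atg genes and the endosomal genes were bound in near equal shares, with 11 of 20 Atg genes (55%, 31.5 to 76.9) and 19 of 34 Vps and Snx genes (55.9%, 37.9 to 72.8). Within the latter, 14 of 27 Vps and 5 of 7 Snx genes were bound. The 1358 strongest optimal summits reached 6 of the 54 genes, 11.1%, beside 9.26% of all protein-coding genes. These 6 were Atg4b, Vps33B, Vps24, Atg18a, Snx3 and Vps45. Of the 54 genes, 26 were bound in the list of each of the 3 replicates, 48.1% beside 36.4% of all genes. Among the 47 members with 1 annotated TSS, 25 were bound, 53.2% beside 36.1% of all such genes.

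**Figure D1:**
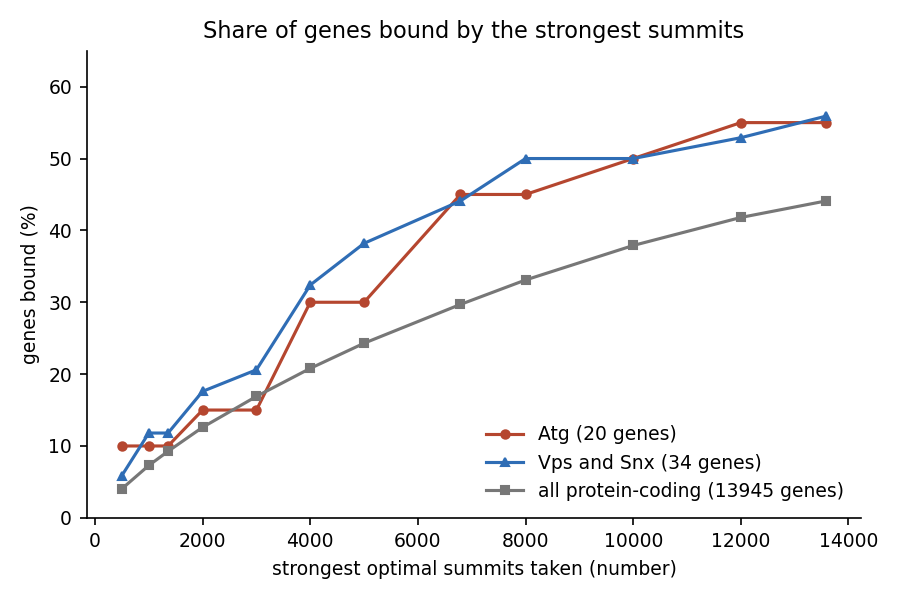
Share of genes bound (y axis, %) when the strongest optimal summits up to a given number are taken (x axis), for the 20 Atg genes, the 34 Vps and Snx genes and all 13945 protein-coding genes. The curves of Atg and of Vps and Snx end at 55% and 55.9%, and that of all genes at 44.1%.

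The shares of Atg and endosomal genes also overlapped across single replicates. Each replicate was taken at its 13583 strongest lines, so that equal numbers of peaks were compared. Atg genes were bound at 55%, 70.0% and 65% in the order of the replicate numbers, and their mean share was 63.3% ± 7.64 (SD, n = 3). For Vps and Snx genes the shares were 52.9%, 64.7% and 79.4%, and their mean was 65.7% ± 13.3 (SD, n = 3). The share of Atg genes was the higher in replicates 1 and 2 and the lower in replicate 3, and the ranges overlapped. The difference, Atg minus Vps and Snx, was 2.06, 5.29 and -14.4 percentage points, a mean of -2.35 ± 10.6 (SD, n = 3; exact two-sided sign-flip permutation p = 1.0, where 3 replicates allow no p below 0.25). Leaving out replicate 3 turned the mean to 3.68. All protein-coding genes were bound at 42.1%, 47.5% and 48.3%, a mean of 46% ± 3.35 (SD, n = 3). The 54 genes together stood above that by 11.6, 19.2 and 25.8 points in replicates 1, 2 and 3. The members' share was the higher in each of the 3, by the least in replicate 1. All 3 replicates cover the same 54 genes, so they do not repeat the choice of genes, and this difference was not tested.

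**Figure D2:**
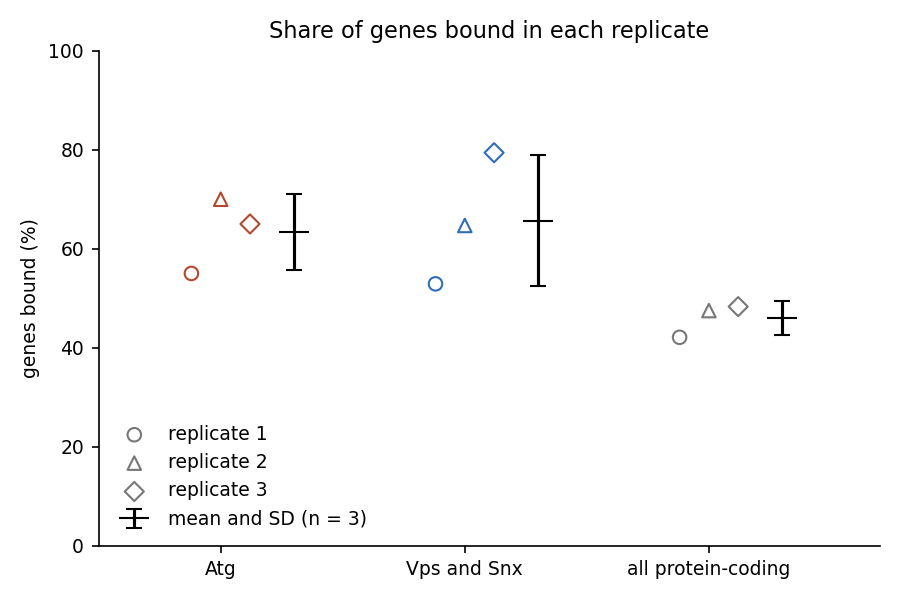
Share of genes bound (y axis, %) within the 13583 strongest lines of each replicate for Atg genes, Vps and Snx genes and all protein-coding genes. Symbols are replicates 1, 2 and 3, and bars are the mean and SD (n = 3). Atg spans 55% to 70.0% and lies inside the 52.9% to 79.4% of Vps and Snx.

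Many of these genes share their promoter region with a neighbour, and the share bound is given here with and without one. Under the 1 kb rule a summit at the neighbour's TSS also counts for the member. A head-to-head neighbour, here a protein-coding gene on the other strand with a TSS at most 1 kb upstream, was present at 37 of the 54 genes, 68.5% beside 36.2% of all protein-coding genes. It was present at 16 of 20 Atg genes (80.0%) and at 21 of 34 Vps and Snx genes (61.8%). Of the 37 members with one, 23 were bound, 62.2% beside 64.7% of all such genes. Of the 17 without, 7 were bound, 41.2% beside 32.4% of all such genes. By family, 9 of 16 Atg genes with a neighbour (56.2%) and 2 of 4 without (50.0%) were bound. For Vps and Snx genes these counts were 14 of 21 (66.7%) and 5 of 13 (38.5%). The members' share was slightly below that of all genes with a neighbour and above it without one. These differences rest on few genes, carry no interval and were not tested, so no direction is read from them. The part of the arrangement in the share over all 54 was not tested.

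**Figure D3:**
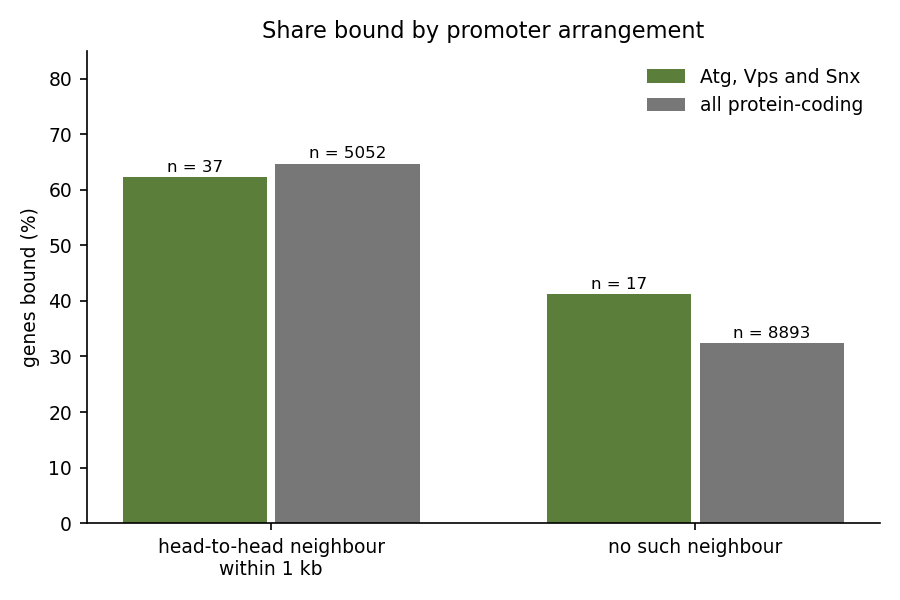
Share of genes bound (y axis, %) for genes with a head-to-head neighbour within 1 kb and for genes without one, with the Atg, Vps and Snx genes beside all protein-coding genes. The number over each bar is the number of genes. With a neighbour the shares were 62.2% and 64.7%, without one 41.2% and 32.4%.

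The strongest summits were often nearer to the neighbour's start site than to that of the Atg, Vps or Snx gene. At 15 of the 30 bound genes the nearest TSS was the gene's own, 50.0% beside 73.3% of all bound genes. Another gene's TSS lay within 1 kb of the strongest summit at 23 of 30, 76.7% beside 54.1%. The neighbour was the nearer at 8 of the 12 strongest members and at 7 of the other 18. Over all genes the own TSS was the nearest at 70.4% of genes bound by the 1358 strongest summits and at 74.1% of the other bound genes. With each summit assigned to the nearest TSS alone, 8 of 20 Atg genes (40.0%) and 13 of 34 Vps and Snx genes (38.2%) were bound, beside 35.2% of all genes. The peak lists do not show which of a pair of promoters a bound factor serves.

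Summits lay close to the start sites and mostly upstream of them. The strongest summit of a bound member was at a median of 151 bp from its TSS, with a range from 8 to 833 bp, beside a median of 195 bp over all bound genes. It was upstream at 25 of 30 members, 83.3% beside 68% of all bound genes, and within 250 bp at 19 of 30, 63.3% beside 57.6%. By annotation, 18 of these summits were intergenic, 9 lay in a 5' UTR, 2 in a coding exon and 1 in an intron, in several cases of the neighbouring gene. More than 1 summit near a TSS was found at 11 of the 30, 36.7% beside 36.6% of all bound genes.

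**Figure D4:**
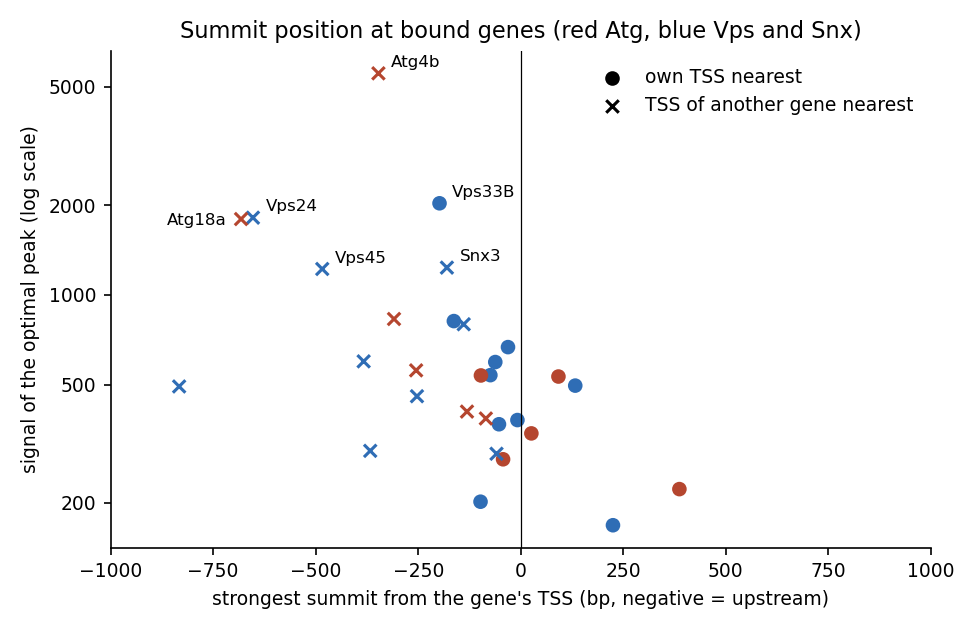
Position of the strongest summit from the gene's own TSS (x axis, bp, negative upstream) and the authors' signal of that optimal peak (y axis, log scale) for the 30 bound genes, Atg in red and Vps and Snx in blue. Circles have the own TSS nearest (15 genes) and crosses have the TSS of another gene nearest (15 genes). Most points lie upstream.

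The counts by complex that follow each cover few genes and stand beside the 44.1% of all protein-coding genes bound. Of the conjugation machinery, 5 of 10 genes were bound, with the strongest peak of all members at Atg4b. Atg4 proteases cut Atg8 before and after its attachment to lipid. The Atg4b peak, at chr3R:15356969-15357588, had a signal of 5557 and rank 13, and ranked 11, 20 and 35 in replicates 1, 2 and 3, with signals of 3200, 1622 and 747, each on its list's own scale. Its summit was 347 bp upstream of Atg4b and 42 bp from a TSS of Hibch, an enzyme of valine breakdown, in whose 5' UTR it lay. TTGCGCAA stood with its centre 19.5 bp from the summit. The other protease gene, Atg4a, had a peak of rank 3602 at 92 bp downstream of its TSS in its own 5' UTR, with no other gene within 1 kb, and ranked 3992, 3592 and 4967 in the replicates. The 2 protease genes thus differed widely in rank in each replicate, and the stronger site is the shared one. Atg8a, the ubiquitin-like protein of the autophagosome membrane, had rank 3563 with its own TSS nearest (97 bp upstream) and ranked 7785, 1893 and 1357, lower in replicate 1 than in replicates 2 and 3. Atg7, the activating enzyme, had rank 5240 and ranked 12001, 1731 and 5890, with its summit 74 bp from a TSS of Sec6. Atg3, the enzyme that hands Atg8 to its lipid, had rank 8209 and ranked 14355, 4665 and 5291, with a DRE 1.5 bp from the summit. Atg5, Atg10, Atg12, Atg16 and Atg8b were not bound.

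Among the Atg genes of lipid transfer and of reading the phosphoinositide mark, 2 of 4 were bound, or 3 of 7 with the VPS13 family of lipid transfer proteins. Atg18a carried the canonical site. Atg18a is a WIPI-type protein that binds the phosphoinositide mark. Its peak, at chr3L:8185545-8186456, had a signal of 1799 and rank 360, and ranked 296, 1434 and 191, lowest in replicate 2, with replicate signals of 1160, 249 and 392. The summit was 682 bp upstream of Atg18a, in an intron of the neighbouring gene ERR, which encodes an orphan nuclear receptor, and 496 bp from a TSS of ERR. TTACATAA stood 3.5 bp from the summit and TTGTGTAA 29.5 bp from it. Further summits of Atg18a, at 40 and 422 bp downstream of its start sites, had ranks 5355 and 10888. Atg2, a lipid transfer protein, had summits at ranks 3356 and 4788, of which the stronger was matched in replicates 1 and 2 (ranks 6319 and 1100) and not in replicate 3. The stronger summit was 255 bp upstream of Atg2 and 76 bp from a TSS of CG12093. Atg9, the membrane scramblase, and Atg18b were not bound.

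In the Atg1 kinase complex, 2 of 4 genes were bound. Atg17, the scaffold of the complex, had a peak at chr3R:5669205-5669818 with a signal of 830 and rank 1661. It ranked 4880, 462 and 2240 in the replicates, highest in replicate 2, with signals of 270, 448 and 117. Its summit was 309 bp upstream, 70 bp from a TSS of Xe7. Atg1, the kinase itself, had 1 summit near its TSS, with rank 10254, in its own 5' UTR at 387 bp downstream, and ranked 9516, 17970 and 7352. Within the gene body of Atg1 a further 9 optimal summits lay farther than 1 kb from its TSS, the most of any member. Atg1 is also the longest member (chr3L:12784429-12805116), followed by Snx27, while the median length of a member was 2838.5 bp. These counts were not corrected for gene length and were not made over all genes. Snx27 had 3 such summits, Atg17 had 2, and Atg5, Atg7, Atg13, Atg18b and Vps11 had 1 each. Atg13 and Atg101 were not bound at their TSSs.

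Of the phosphatidylinositol 3-kinase complexes, the 3 genes that the symbol rule takes, Vps15, Atg6 and Atg14, were bound, each in all 3 replicates, beside 44.1% and 36.4% of all genes. With 2 further subunit genes outside the rule, which were not bound, the count was 3 of 5. These were Pi3K59F, the catalytic subunit, whose nearest optimal summit was 4292 bp from a TSS, and Uvrag, at 3629 bp. Vps15 encodes the regulatory subunit. Its peak, at chr3R:9245799-9246222, had a signal of 817 and rank 1711, and ranked 2865, 1114 and 1645 (signals 388, 287 and 140), with the summit 163 bp upstream and its own TSS nearest. Atg6, the Beclin homologue, had rank 5650 and ranked 6716, 6115 and 4581, with its summit in a 5' UTR of Pisd. Atg14 had rank 6538 and ranked 7579, 4437 and 7668, with its own TSS 26 bp away and a DRE 21.5 bp from the summit.

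Of the ESCRT genes that the symbol rule takes, 6 of 9 were bound, 66.7% with an exact interval (29.9 to 92.5) that holds the 44.1% of all genes. Among ESCRT subunit genes outside the rule, CHMP2B, Hrs, Stam, TSG101, lsn and shrb were bound and Chmp1 was not. Vps24, an ESCRT-III subunit, had a peak at chr3R:4311378-4311832 with a signal of 1819 and rank 350, and ranked 327, 619 and 298 (signals 1115, 387 and 330). Its summit was 653 bp upstream of Vps24 and 45 bp from a TSS of Suv3, a mitochondrial RNA helicase, in whose 5' UTR it lay. Vps36, of ESCRT-II, had a peak at chr3L:13513028-13513443 with a signal of 797 and rank 1791, its summit 139 bp upstream and 3 bp from a TSS of Liprin-beta. It ranked 578 in replicate 2 and 3546 in replicate 3 (signals 404 and 88.9). No line of replicate 1 lay within 200 bp, although a line of rank 3555 in replicate 1 lay within 1 kb of the TSS. Vps60, at chr3L:17621469-17621887, had a signal of 595 and rank 3040 with its own TSS nearest (62 bp upstream). It ranked 4432, 2580 and 1643 (signals 290, 176 and 140). Vps28, of ESCRT-I, had rank 6004, and Vps4, the ATPase that takes ESCRT-III apart, had rank 7670 with both a DRE and a PAR bZIP-like word, 4.5 and 28.5 bp from the summit. That summit was 367 bp upstream of Vps4 and 64 bp from a TSS of CG7772. Vps20 had rank 11181 with no line of replicate 1 within 200 bp. Vps2, Vps25 and Vps37B were not bound.

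Among genes of retrieval from endosomes, 1 of 3 retromer genes and 3 of 4 retromer-linked sorting nexin genes were bound. Their exact intervals, 0.84 to 90.6% and 19.4 to 99.4%, both hold the 44.1% of all genes. Snx3, a retromer adaptor that in flies recycles the Wnt carrier Wntless, had a peak at chr3R:12627619-12628103 with a signal of 1236 and rank 779, and ranked 963, 844 and 559 (signals 681, 332 and 246). This summit was 180 bp upstream of Snx3 and 22 bp from a TSS of Vha55, a subunit of the vacuolar proton pump. Snx27, which carries a PDZ domain, had rank 3544 with no other gene within 1 kb and ranked 5607, 2978 and 1546. Snx1, with rank 13000, was near the end of the optimal list and ranked 15459, 10159 and 13466, outside the strongest lines of replicate 1. Vps29, a retromer subunit, had a peak at chr2L:1150629-1150833 with a signal of 380 and rank 5744, its summit 8 bp upstream. It ranked 6370, 6390 and 5547 (signals 218, 89.6 and 65.7), close in rank. Vps26, Vps35 and Snx6 were not bound.

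Tethering genes were bound in part. Vps33B, a member of the Sec1/Munc18 family, had the second strongest member peak, at chr3R:25472955-25473596, with a signal of 2033 and rank 281. It ranked 557, 117 and 241 in the replicates (signals 887, 809 and 354), among the strongest lines of each. The summit was intergenic, 198 bp upstream, with its own TSS nearest and Fur1, which encodes a furin-type protease, also within 1 kb. Its partner gene Vps16B was not bound, with the nearest optimal summit 13448 bp away. Of the GARP and EARP tethers, Vps53 had a peak at chr2L:4385950-4386236 with a signal of 668 and rank 2475. It ranked 2827, 3015 and 2511 (signals 391, 158 and 110), close in rank, with its own TSS 31 bp away and a DRE 31.5 bp from the summit. Vps52 had rank 4430, with its summit in a 5' UTR of Elp4 and 12 bp from a TSS of that gene. Vps50 and Vps51 were not bound. The GARP subunit gene scat, outside the symbol rule, was bound with rank 4595 and in all 3 replicates. Of the HOPS and CORVET tethers, Vps8 had 3 summits, the strongest at chr3L:6495974-6496318 with a signal of 492 and rank 4008. It ranked 3408, 7510 and 4262 (signals 351, 77.1 and 78.5), 833 bp upstream in a 5' UTR of sfl, and a summit 19 bp upstream had rank 4501. Vps11, Vps16A and Vps39 were not bound.

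Of the remaining members, Vps45, a Sec1/Munc18 protein of endosomal fusion, had a peak at chr3R:9563197-9563958 with a signal of 1223 and rank 805. It ranked 830, 1300 and 753 (signals 743, 263 and 212). Its summit was 484 bp upstream, in a coding exon of CG9393. Snx21, at chr2L:2765594-2766274, had a signal of 598 and rank 3014 and ranked 6135, 956 and 4201 (signals 224, 311 and 79.4), highest in replicate 2. The Snx21 summit was 185 bp from a TSS of aph-1. Snx16, which acts on receptor traffic at fly synapses, had rank 7821, with its summit 8 bp from TSSs of CG4975 and CG4984. Vps13, a lipid transfer protein, had a peak at chr2R:7566842-7567187 with a signal of 496 and rank 3972, and ranked 3679, 8583 and 2374 (signals 334, 68 and 113). By contrast, Vps13B, Vps13D and Snx17 were not bound.

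**Figure D5:**
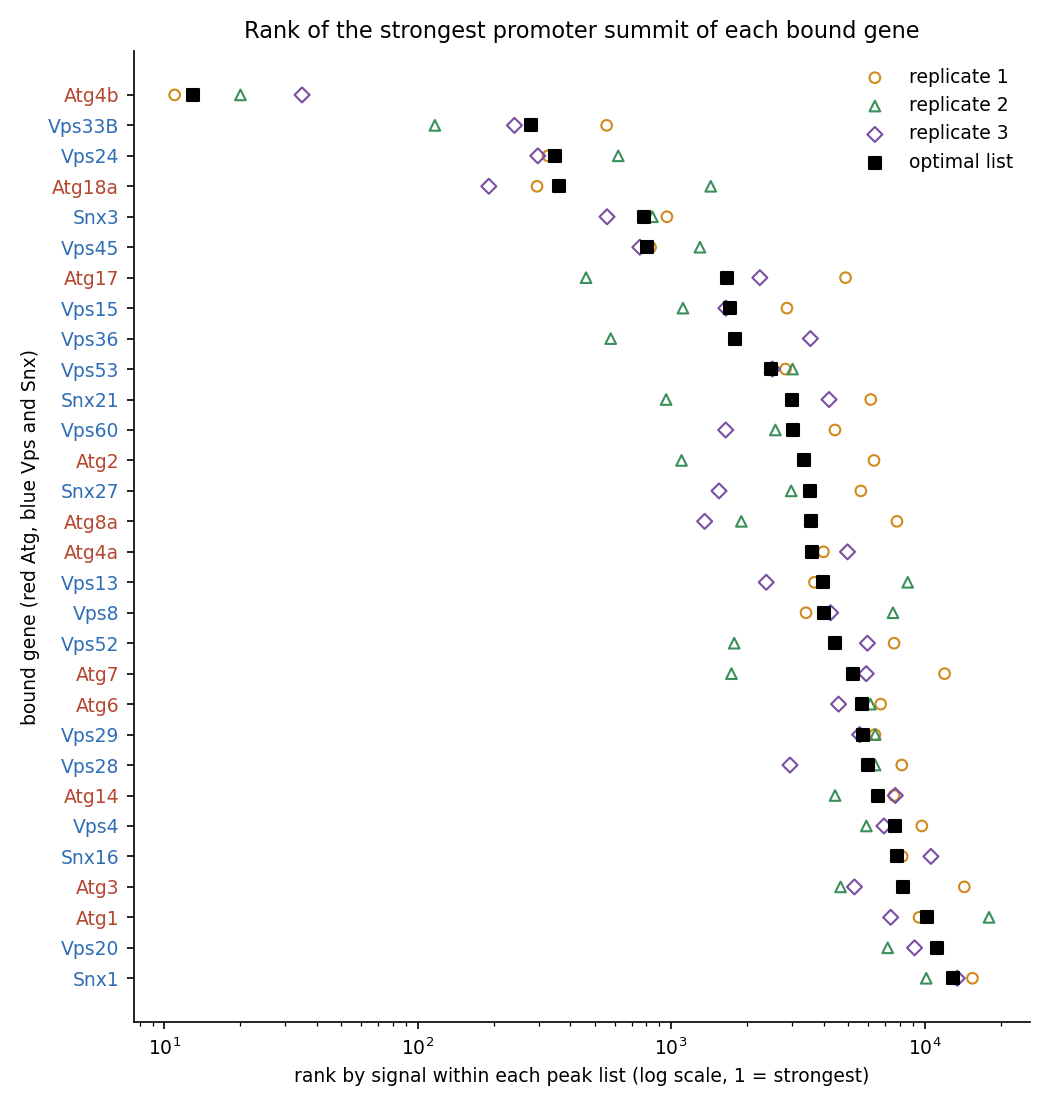
Rank of the strongest promoter summit of each of the 30 bound genes (y axis, sorted by rank in the optimal list) within the optimal list and within each replicate list (x axis, log scale). Squares are the optimal list, and circles, triangles and diamonds are replicates 1, 2 and 3. Atg4b lies at 11 to 35 in every list, and a missing symbol is a replicate with no line within 200 bp.

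Peaks at the bound genes recurred across replicates in a share near that of all bound genes. The strongest summit was among the 13583 strongest lines of all 3 replicates, within 200 bp, at 24 of 30 genes, 80.0% beside 75.4% of all bound genes, and of 2 replicates at the other 6. Over all 43 optimal summits near a member's TSS, 32 were found in all 3 replicates, 74.4% beside 67.9% of all 6919 promoter summits. These 43 summits lay in 41 peak intervals, so a few share an interval.

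The 24 unbound members had their nearest optimal summit 1006 to 40439 bp from a TSS, with a median of 2854 bp. At the edge of the window, the farthest nearest summits among bound members were those of Atg1 (387 bp), Snx21 (383 bp) and Vps4 (367 bp), and the nearest among unbound members were those of Vps11 (1006 bp), Atg5 (1239 bp) and Atg12 (1322 bp). No member thus had its nearest summit between 387 and 1006 bp. Of the 24, 14 were bound in the strongest lines of at least 1 replicate and none in all 3. That is 58.3%, beside 21% of the 7797 protein-coding genes not bound in the optimal list. By replicate, 2, 7 and 10 of the 24 were bound, which is 8.33%, 29.2% and 41.7% beside 3.14%, 12.2% and 13.3% of those genes. Vps50 had lines of rank 2074 in replicate 2 and 3839 in replicate 3. Vps16A had a line of rank 2003 in replicate 3, and Atg9 one of rank 2436 in replicate 2. None of these 3 genes had a line of the pooled list within 1 kb of a TSS. The 10 unbound members with no such line in any replicate were Atg10, Atg101, Atg8b, Snx17, Vps13B, Vps13D, Vps16B, Vps25, Vps35 and Vps51.

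PAR bZIP-like words were found at a minority of member summits. One of the 10 words lay within 50 bp of 7 of the 43 member summits, 16.3% (exact 95% interval 6.81 to 30.7), beside 26.1% of all 6919 promoter summits, a share inside that interval. Equal windows around a point 300 bp off the summit held a word at 6.98% and 4.41%. The 7 summits were at Atg4b, Atg18a, Atg2, Snx21, Vps4, Vps52 and Vps8. The canonical site lay at 1 of the 43, at Atg18a, 2.33% (0.0589 to 12.3) beside 8.34%, which lies inside that interval. In the windows 300 bp off it lay at 4.65% and 0.911%. At Atg summits the share with a word was 3 of 17 (17.6%) and at Vps and Snx summits 4 of 26 (15.4%). The DRE was at 4 of 43 member summits, 9.3% (2.59 to 22.1) beside 3.54% of promoter summits, a share inside that interval. It was at none of the 43 windows 300 bp off, where over all promoter summits it lay at 0.968%. TGACGTCA was at 1 member summit and at 0.448% of promoter summits. CACGTG, the core of sites bound by Mitf-type regulators of lysosomal genes, was at 1 of 43, Vps13, beside 1.52% of promoter summits. In the windows 300 bp off it lay at 2.33% and 1.5%. TCACGTGA was at 0 of 43 and at 0.0289% of promoter summits. The intervals cover counting of summits alone, and a word in a window does not show that the factor binds through it.

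Further genes of the pathway whose symbols fall outside the rule were bound in a like share, by peaks of weaker median rank. Of 31 such genes, 17 were bound, 54.8% (36 to 72.7) beside the 44.1% of all genes. The 1358 strongest summits reached 2 of them, 6.45% beside 9.26% of all genes. The median rank of the strongest summit was 7777 at these 17 genes, 3582.5 at the bound members and 4349.5 at all bound genes, with no test of the difference. The 2 genes reached were CHMP2B and Hrs. CHMP2B, an ESCRT-III subunit, had rank 72 and signal 3360 and ranked 228, 21 and 108 in replicates 1, 2 and 3. Hrs, of the complex that starts ESCRT sorting, had rank 1241 and ranked 1701, 1164 and 1172. Their summits lay 117 bp upstream and 19 bp downstream of the TSS.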

How the data were processed

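Peak lists were analysed as deposited by the authors, in narrowPeak format on dm6. Per the deposited file records, each replicate list and the pooled list were derived from the replicate alignments and 1 further file, which the records also list for control-normalized tracks, and served as input for IDR. The optimal list was derived from these lists. Caller, aligner and versions: not given in the sources used here. Signal is the seventh column as deposited by the authors, whose scale differs between lists. The 13583 optimal lines were found to be the strongest lines of the pooled list. None of 133565 intervals passed an arm end of the Release 6 genome. The dm3 lists were not used here. Members and comparison lists were chosen with earlier results of these data known.

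Calculations used Python 3.11.15, numpy 2.4.6, pandas 2.3.3 and scipy 1.17.1, with gene models of Ensembl release 115 (BDGP 6.54) for the 6 main arms. Replicate lines matched an optimal summit within 200 bp. Words were searched 50 bp each side of a summit and, on alternating sides along the ranked list, around a point 300 bp away. The scripts were tested on planted summits. Values are given in full for the 12 strongest members and the strongest of each complex, with every other member named. The 61-base windows planned for summits with a PAR bZIP-like word overlapped UTRs or did not hold the word, so 30 bases around it are shown. Sequences from arm 2R were left out. The labels call the replicates biological and give no dates. P-values measure only the spread between these 3 libraries. Alternatives changed the TSS window, the peak set, the assignment, the matching distance, the gene models and the replicates used.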

Additional observations from a re-analysis of the deposited data

How the results depend on the processing

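The counts of bound Atg genes (8 to 15) and of bound Vps and Snx genes (13 to 22) stayed within 1.5 times the reported values under all 15 alternatives each. RefSeq gene models, an alternative added after the data were seen, gave 11 and 19 again. They matched all 54 members and held 13945 coding genes, the same number as the main models. The equal counts thus say little about other gene models. Leaving out 1 replicate gave 9 to 10 Atg genes and 16 to 19 Vps and Snx genes. No peaks were called anew for this, and the optimal list was derived from all 3 replicates. These counts thus do not show what peaks called without 1 replicate would give. The difference on the optimal list, Atg minus Vps and Snx, was -0.882 percentage points, and -5.88 to 0 without 1 replicate. It moved by more than the spread between replicates with a TSS window of 2000 bp, where it was 16.2 (15 of 20 Atg against 20 of 34 Vps and Snx genes). The mean difference over replicates, -2.35, changed sign under 5 of 8 alternatives. It was 1.86 with whole replicate lists, and 3.04, 0.588 and 12.4 with TSS windows of 250, 500 and 2000 bp. It ranged from -6.18 to 3.68 without 1 replicate. With 3 replicates or fewer, no exact sign-flip permutation p can fall below 0.25, so these p-values cannot show a difference. The window of 2000 bp reached that smallest value of 0.25, with the share of Atg genes the higher in each replicate. The cause was not tested. The share of member summits with a PAR bZIP-like word was 11.6% to 23.3% with other windows or replicated peaks, and 2.33% for the canonical site, which is a subset of the words. Samples could not be paired across groups, because the series holds 1 group of samples. The difference within each replicate, which the permutation test used, sets 2 gene groups of the same library against each other as a pair. Depth was unknown, and 3 replicates limit every comparison.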

Other observations

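The HOPS tether, which fuses autophagosomes and late endosomes with lysosomes, had no subunit gene bound in the optimal list among the 6 looked up, Vps11, Vps16A, Vps39, dor, car and lt, a set put together after the values were seen. Their nearest optimal summits were 1006 to 27231 bp from a TSS, and the share of all protein-coding genes bound was 44.1%. Within the strongest lines of single replicates, 0, 2 and 4 of the 6 were bound, in the order of the replicate numbers, beside 42.1%, 47.5% and 48.3% of all genes. In replicate 3 most of the set was thus bound. Mitf, which encodes the regulator of lysosomal genes, had a summit of rank 9375 that was 25 bp downstream of a TSS.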
